A study of Mus musculus with 2 samples.

Results

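The complement genes described here are 9 genes chosen by name: the C1q chains C1qa, C1qb and C1qc, properdin (Cfp), C3, C4b, factor B (Cfb) and the receptors C3ar1 and C5ar1. They are 9 of 27597 gene names on a mouse whole-genome array, and 11 of its 41174 gene probes carry their names. The arrays compared CD8+ T cells of Bcl11bF/F/dLck-iCre mice with those of wild type mice. In the former, a Cre driven by the distal Lck promoter deletes floxed Bcl11b, a zinc-finger transcription factor, in T cells. All mice of both genotypes had been infected with Listeria monocytogenes-OVA and were taken on day 6. The data are 2 arrays with 2 colours each, 1 per biological replicate, with deficient RNA in Cy5 and wild-type RNA in Cy3 on both, so a dye effect and an effect of genotype cannot be told apart. The labels give neither the number nor the age of the mice. The p-values set each gene's mean ratio against the spread between these 2 arrays, pooled over all tested genes. The cells had been isolated by negative selection, with a purity of over 90% according to the labels.

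Complement is a cascade of plasma proteins that marks microbes and dying cells. C1q binds antibody or surfaces and starts the classical pathway, which cleaves C4 and C2; the alternative pathway uses C3, factor B and properdin; both lead to cleavage of C3, and the released fragments C3a and C5a attract and activate phagocytes through C3aR and C5aR1. The liver makes most plasma C3, C4 and factor B, whereas tissue macrophages are a main source of C1q, and myeloid cells store or secrete properdin.

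Promoter sequences were at hand for 6 of the 9 genes, from RefSeq on build GRCm38.p6. The 250 bases upstream of the start of C1qb, C1qc, C3 and Cfp are shown because these are the measured members with the highest ratios, apart from C1qa. Each runs 5′ to 3′ on the minus strand, which is the coding strand of all 4 genes: C1qb chr4:136886201-136886450, C1qc chr4:136892915-136893164, C3 chr17:57228137-57228386 and Cfp chrX:20931556-20931805. Capitals mark matches, on either strand, to the Ets core bound by the myeloid factor PU.1 (AGGAAG) and to a C/EBP site (TTGCGNAA).
C1qb: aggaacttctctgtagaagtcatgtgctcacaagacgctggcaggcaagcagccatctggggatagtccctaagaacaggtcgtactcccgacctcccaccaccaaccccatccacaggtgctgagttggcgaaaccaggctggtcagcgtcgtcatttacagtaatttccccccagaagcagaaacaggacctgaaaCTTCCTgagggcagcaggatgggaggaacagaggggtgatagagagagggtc
C1qc: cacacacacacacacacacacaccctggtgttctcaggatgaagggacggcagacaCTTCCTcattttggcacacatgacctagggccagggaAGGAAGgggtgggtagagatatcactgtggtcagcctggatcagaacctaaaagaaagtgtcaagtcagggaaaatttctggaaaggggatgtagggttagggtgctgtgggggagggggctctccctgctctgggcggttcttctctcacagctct
C3: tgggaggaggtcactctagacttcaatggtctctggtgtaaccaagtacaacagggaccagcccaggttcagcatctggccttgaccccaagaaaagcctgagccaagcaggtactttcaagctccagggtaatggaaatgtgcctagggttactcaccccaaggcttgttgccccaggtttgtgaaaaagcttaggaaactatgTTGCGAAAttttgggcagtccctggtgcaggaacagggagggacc
Cfp: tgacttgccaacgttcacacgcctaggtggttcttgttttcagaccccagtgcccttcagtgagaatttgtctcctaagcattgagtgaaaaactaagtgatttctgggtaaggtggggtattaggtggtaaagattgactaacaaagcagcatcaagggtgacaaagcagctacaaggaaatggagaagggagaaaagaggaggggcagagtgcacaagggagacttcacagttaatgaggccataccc

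The letters AGGAAG stood in 3 of the 6 member promoters, those of C1qb, C1qc and C5ar1, and in 29.5% of 32851 promoters of the same length. The window of C1qb held 1 match, 52 to 47 bases upstream of the start, and that of C1qc held 2, at 194 to 189 and 157 to 152 bases. The letters TTGCGNAA stood in the C3 window alone of the 6, 45 to 38 bases upstream, and in 0.67% of all promoters. An interferon-stimulated response element (in 2.98% of promoters) and a Maf half-site (TGCTGAC, in 3.81%) were in none of the 6 windows. No searched motif overlapped another in the windows shown. These are matches of letters in a window and no evidence of binding.

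On both arrays RNA of 3 C1q chains, properdin and C3 was brighter in the deficient than in the wild-type preparation relative to other genes, whereas factor B was too dim in wild-type RNA for more than a bound and both anaphylatoxin receptors stayed in the range of blank spots. The mean log2 ratio, deficient over wild type, was 3.49 for C1qc, 3.36 for Cfp, 2.38 for C1qb, 2.36 for C1qa and 2.03 for C3. It was 1.07 for C4b. The genes were chosen with results of this same comparison known, so their ratios are a description and carry no test. In a limma fit across all 9931 genes that were bright enough to test, 7 of the 9 members took part and 5 passed an adjusted p of 0.05, all upward; 3.67% of all tested genes passed upward, 5.97% downward and 9.64% in either direction. These 5 are C1qa, C1qb, C1qc, Cfp and C3, and nothing is read from their number, given how the genes were chosen. The fit gave every gene the same standard error of 0.42, so a pass means a mean log2 ratio of at least 1.18 in size. A gene's own spread between the arrays had no weight in its p-value. Of all calls 38.0% were upward; centring each array on its tested genes moved this to 49.0%, median centring in place of loess to 16.5%, no background correction to 60.8%, and keeping only probes bright in both colours to 71.9%. No gene passed with a fitted background surface, with no filter on dim probes or with the colours fitted separately, and the ratios of Feature Extraction called 2 of the members, C1qc and Cfp; C3 also missed the threshold with median centring. Of 9931 tested genes the median log2 ratio was -0.22 on replicate 1 and -0.01 on replicate 2.

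**Figure D1:**
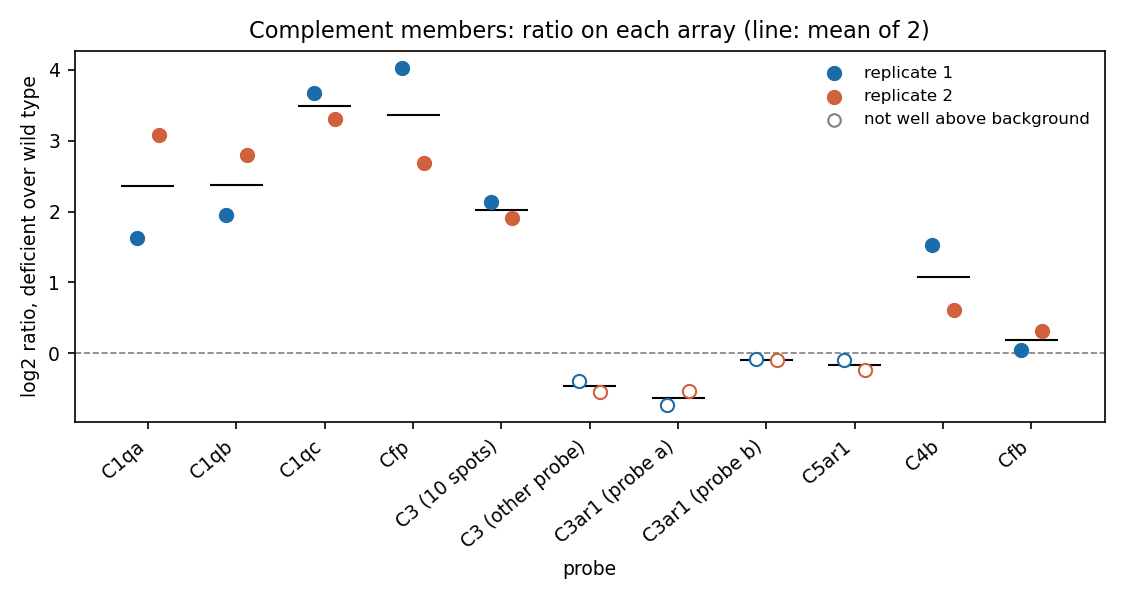
Log2 ratio of deficient over wild-type RNA for each of the 11 probes of the 9 genes on both arrays (points), with the mean of the 2 arrays as a line; open points are probes with no colour that was well above background on both arrays. C1qc, Cfp, C1qa, C1qb and C3 lie above 1.6 on both arrays, Cfb, whose wild-type colour was dim, lies between 0.04 and 0.32, and the probes of C3ar1 and C5ar1 and the second C3 probe are open.

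The C1q chains are encoded side by side and form 1 protein together. The C1qc probe (NM_007574; chromosome 4, 136161927 to 136161986, build NCBI36) had a mean spot signal of 1802 in wild-type RNA and 12725 in deficient RNA on replicate 1, and of 1619 and 19683 on replicate 2. Its log2 ratio was 3.67 and 3.31 (mean 3.49 ± 0.26, SD, n = 2), an 11.2-fold difference and the third highest of all tested genes. C1qc was therefore high in the deficient preparation on both arrays, and its wild-type signal hardly moved between them. Signals of the 2 colours are on different scales, since blank spots read higher in red than in green, and the ratios are those after normalization.

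C1qb (NM_009777; chromosome 4, 136152739 to 136152798) read 1027 in wild-type and 3204 in deficient RNA on replicate 1, and 1142 and 9636 on replicate 2, which gave log2 ratios of 1.96 and 2.80 (mean 2.38 ± 0.60, SD, n = 2). C1qa (NM_007572; chromosome 4, 136168570 to 136168629) read 923 and 2628 on replicate 1 and 1108 and 11162 on replicate 2, with log2 ratios of 1.63 and 3.09 (mean 2.36 ± 1.03, SD, n = 2). The raw signals of both chains differed between the arrays chiefly in the deficient colour. Neither these signals nor the ratios were normalized between arrays, so a general difference in red between the arrays was not told apart from this. On replicate 1 the log2 ratio of C1qc exceeded that of C1qa by 2.04 and that of C1qb by 1.72, and on replicate 2 by 0.22 and 0.50. The 3 chains thus had like ratios on replicate 2 and unlike ones on replicate 1, each from 1 probe in 1 spot. With C1qa and C1qb the order between them turned: C1qb was higher by 0.33 on replicate 1 and lower by 0.28 on replicate 2.

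Properdin, which stabilizes the C3 convertase of the alternative pathway, had loess-normalized ratios that went the other way between the arrays. Cfp (NM_008823; chromosome X, 20082575 to 20082634) read 1561 in wild-type and 13862 in deficient RNA on replicate 1 and 1554 and 12479 on replicate 2. Its log2 ratio was 4.03 and 2.68 (mean 3.36 ± 0.95, SD, n = 2), rank 2 of the tested genes on replicate 1 and rank 55 on replicate 2. The raw signals of Cfp were nearly alike on both arrays, while the normalized ratios lay 1.35 apart.

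C3 is the central component of all pathways. Its main probe (NM_009778; chromosome 17, 56889328 to 56889387) is printed in 10 spots on each array, and their average signal was 1179 in wild-type and 3826 in deficient RNA on replicate 1, and 771 and 3522 on replicate 2. Over the 10 spots the log2 ratio ran from 2.01 to 2.26 on replicate 1 (median 2.13, SD between spots 0.08) and from 1.68 to 2.05 on replicate 2 (median 1.92, SD 0.11). The mean of both arrays was 2.03 ± 0.16 (SD, n = 2). The spread between spots of an array is technical, and the spread between arrays, each an average of 10 spots, was larger than it. For the other genes, with 1 spot per probe, the spread between spots is not known.

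A second C3 probe (chromosome 17, 56910450 to 56910607), 21.1 kb from the first, gave no measurable signal. It read 303 and 804 on replicate 1 and 384 and 600 on replicate 2, all at or below the upper limit of blank spots. Its log2 ratios of -0.39 and -0.54 therefore do not show whether a difference was present. The result for C3 therefore rests on the first probe. Why the second probe stayed dim was not tested.

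C4b, cleaved by the classical and lectin pathways, and factor B, the protease of the alternative pathway, are both encoded in the class III region of the MHC. C4b (NM_009780; chromosome 17, 34337472 to 34337531) read 671 in wild-type and 2215 in deficient RNA on replicate 1 and 653 and 1510 on replicate 2, with log2 ratios of 1.53 and 0.61 (mean 1.07 ± 0.65, SD, n = 2). C4b was above 0 on both arrays and did not pass; it passed in 2 alternatives, with probes bright in both colours and with each array centred on its tested genes. The mouse has a near-identical gene, C4a, that this probe cannot be assumed to separate, so the assignment to C4b is uncertain; the probe for C4a was not well above background in any colour on any array. Cfb (NM_008198; chromosome 17, 34464613 to 34464969) read 447 and 1291 on replicate 1 and 513 and 1057 on replicate 2, with log2 ratios of 0.04 and 0.32 (mean 0.18 ± 0.19, SD, n = 2). Cfb was well above background in deficient RNA on both arrays and in wild-type RNA on none. Its ratio can thus be given as a bound alone, at least 1.11-fold for the mean of both arrays (0.14 on the log2 scale). Replicate 1, at 0.04, lay below that bound, and Cfb did not pass. Such a bound sets the mean of the brighter colour against the higher of the dim probe's own level and the lowest level well above background, and a dye bias in it was not tested. The levels used for bounds were also normalized between the arrays.

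The receptors for the fragments C3a and C5a gave no measurable signal. The 2 probes of C3ar1 (NM_009779; chromosome 6, 122813823 to 122813882 and 122814297 to 122814356) and the probe of C5ar1 (NM_007577; chromosome 7, 15407044 to 15407103) were not well above background in any colour on any array. C5ar1 read 363 and 1052 on replicate 1 and 463 and 778 on replicate 2. The probes of C3ar1 read 331 and 803, and 290 and 836, on replicate 1, and 380 and 591, and 341 and 592, on replicate 2. The range that holds 95% of the blank spots ended at 407 in green and 1260 in red on replicate 1, and at 504 and 880 on replicate 2. All these receptor signals lay below those limits, so no ratio is given for C3ar1 or C5ar1, and the arrays do not show whether their RNA was present.

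**Figure D2:**
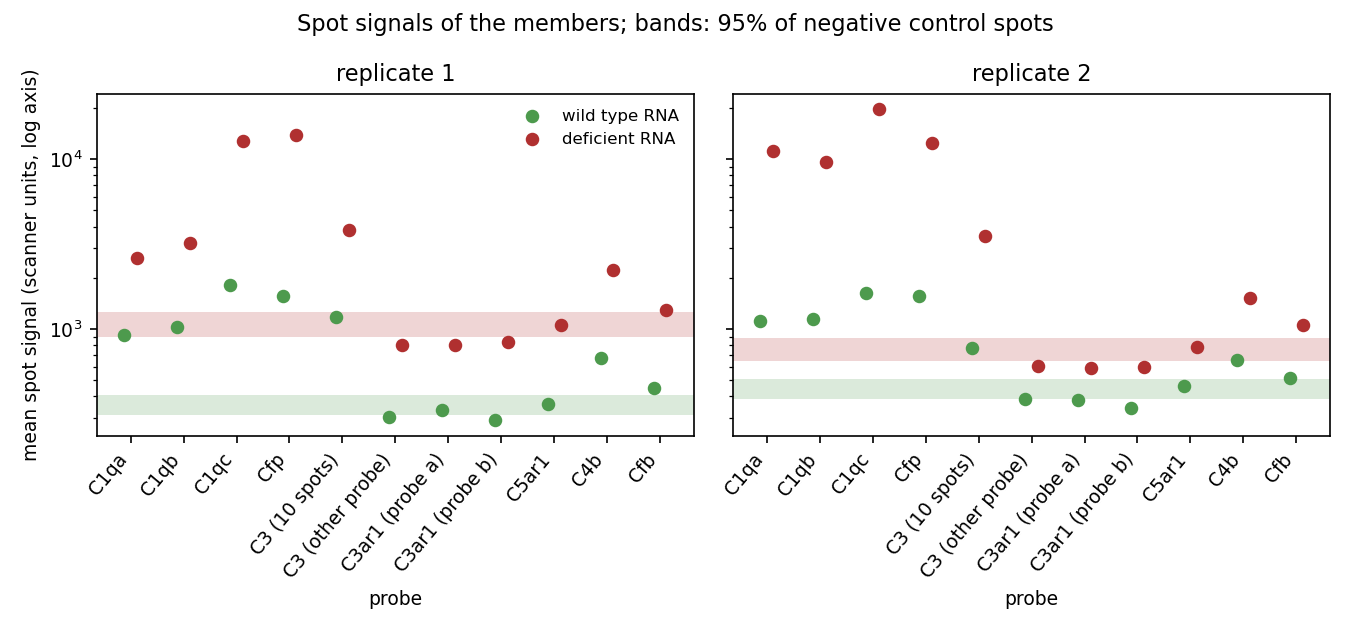
Mean spot signal in scanner units on a log axis for each probe, wild-type RNA (green) and deficient RNA (red), on replicate 1 and replicate 2; shaded bands hold 95% of the 153 negative control spots of that colour. The C1q chains, Cfp, C3 and C4b lie above the band of their colour in both preparations on both arrays, whereas C3ar1, C5ar1 and the second C3 probe do not rise above it.

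Wild-type RNA also carried complement signal: C1qa, C1qb, C1qc, Cfp, C3 and C4b were well above background in it on both arrays. In bulk RNA, more cells of a type and more RNA per cell cannot be told apart, and none of these values says which cells the RNA came from.

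Neighbouring genes were compared within 100 kb of each member's probe. Within 100 kb of the C1q probes the other tested gene was Zbtb40, a zinc-finger gene, at -2.32 and -0.70 on the log2 scale, which limma called lower. Of 5 tested neighbours of C4b and of 4 of Cfp, limma called 0 (1 and 0 at an unadjusted p under 0.05), and the median of their mean log2 ratios was 0.46 and -0.24. Next to Cfb, 5.72 kb from its probe, lies the probe of C2, the serine protease that takes the same place in the classical pathway as factor B in the alternative one. C2 read 602 in wild-type and 3438 in deficient RNA on replicate 1 and 620 and 5261 on replicate 2, with log2 ratios of 2.85 and 3.03 (mean 2.94 ± 0.13, SD, n = 2; limma adjusted p = 1.03e-09). C2 passed in 9 of 12 alternatives, with a limma adjusted p of 0.045 for the Feature Extraction ratios and 0.49 for a fitted background surface. No difference between C2 and Cfb is given, since Cfb has a bound alone. A second C2 probe, dim in wild-type RNA, gave 0.36 and 0.99. Of 9 tested neighbours of Cfb the median was 0.36, and a second gene that passed, 1110038B12Rik, was lower (-1.19).

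**Figure D3:**
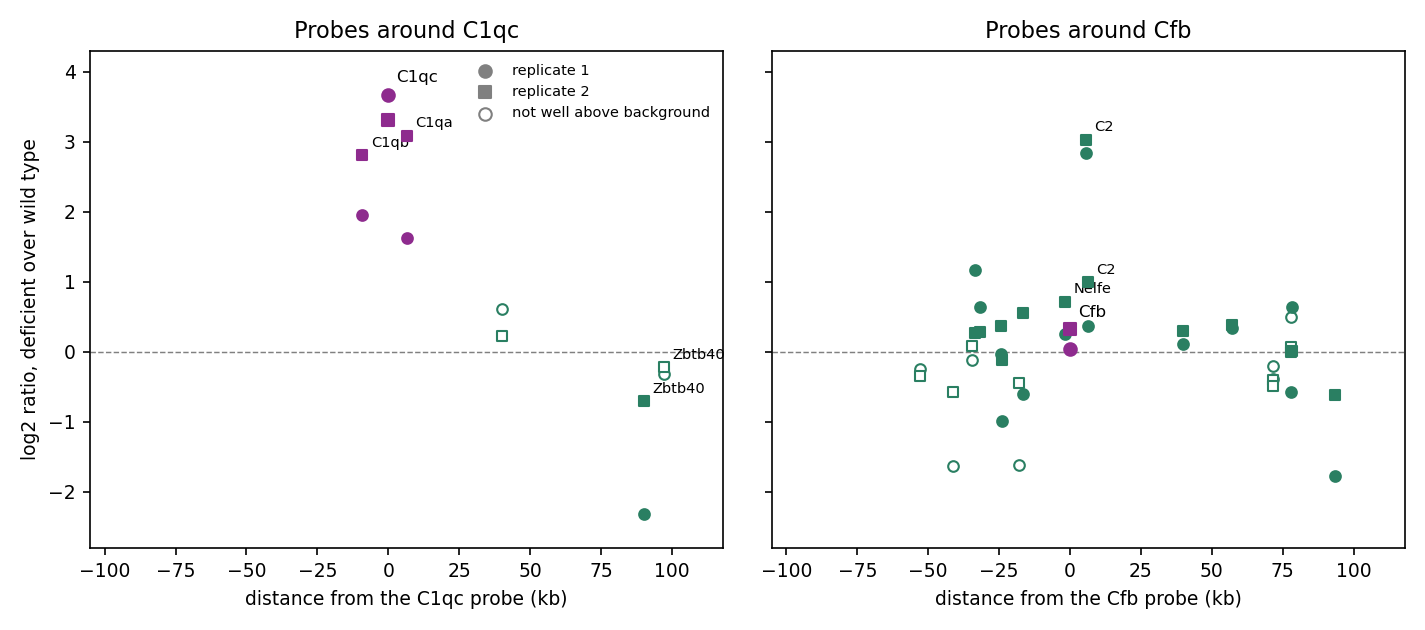
Log2 ratio of every probe within 100 kb of the C1qc probe (left) and of the Cfb probe (right) against its distance in kb, with members in purple, other genes in green, replicate 1 as circles and replicate 2 as squares; open points mark probes with no colour that was well above background on both arrays. The C1q chains stand above 1.6 next to Zbtb40 below 0, and the first C2 probe stands near 3, Cfb, dim in wild-type RNA, at 0.04 and 0.32, with the second C2 probe below 1.

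Of the other genes of the complement system, 50 were listed by role; 48 were on the array and 10 were bright enough to test, of which 3 rose and limma called 0 lower (0 also below 0 at an unadjusted p under 0.05). Over all tested genes 3.67% passed upward. The median mean log2 ratio of the 10 was 0.62, against -0.12 for all tested genes. A gene enters the test also when it is bright in 1 preparation alone, so the 10 do not stand for all 48.

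Among 13 genes of the C1 proteases, the lectin pathway, C2 and C4a, 3 were tested and 2 rose. Beside C2 this was Fcna, which encodes ficolin A, a lectin that starts complement activation. Fcna read 770 in wild-type and 4003 in deficient RNA on replicate 1 and 977 and 6770 on replicate 2 (log2 ratio 2.85 and 2.54; mean 2.69 ± 0.22, SD, n = 2; limma adjusted p = 3.55e-08). Fcna passed in 9 of 12 alternatives, with a limma adjusted p of 0.047 for the Feature Extraction ratios and 0.49 for a fitted background surface. Mbl1, a mannose-binding lectin, stood at 0.58 and 0.23 and did not pass. Its wild-type level was not well above background. The bound for the mean of both arrays was 1.33-fold (0.41 on the log2 scale), and replicate 2 lay below that bound. The C1 proteases C1ra, C1s1 and C1s2, the other part of the C1 complex, were not bright enough to test.

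The fluid-phase end of the cascade was near the detection limit. None of 8 genes for factor D and the terminal components, including Cfd and Hc, which encodes C5, was tested, and 6 of them were not well above background in any colour on any array. Of 8 membrane regulators, which protect host cells, none was tested; Cd55 was well above background in wild-type RNA on replicate 1 alone, and Cd59a in neither preparation. Cr1l, the mouse regulator Crry, was above background in both preparations on replicate 1 and in neither on replicate 2.

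Of 9 other complement receptors 6 were tested and 1 rose. Itgax, the alpha chain of complement receptor 4, read 807 in wild-type and 2135 in deficient RNA on replicate 1 and 831 and 6473 on replicate 2 (log2 ratio 1.23 and 2.77; mean 2.00 ± 1.09, SD, n = 2; limma adjusted p = 1.29e-04). Itgax passed in 6 of 12 alternatives, and its call was lost, among others, with median centring and with the Feature Extraction ratios. Its beta chain Itgb2, which T cells also use for LFA-1, stood at -0.35 and 0.80. The alpha chain of complement receptor 3, Itgam, was not well above background in any colour on any array, and Vsig4, the receptor of liver macrophages for C3b, was above it in deficient RNA on replicate 1 alone. Cr2, the B-cell receptor for C3d, was bright in wild-type RNA on replicate 1 alone and in deficient RNA on replicate 2 alone. C5ar2, a second C5a receptor next to C5ar1, had log2 ratios of 0.35 and 0.75 and did not pass. Its wild-type signal was too dim to measure. The bound for the mean of both arrays was 1.36-fold (0.45 on the log2 scale), and replicate 1 lay below that bound. Cd93 (mean 0.50), C1qbp (-0.29) and Calr (0.69) did not pass either.

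**Figure D4:**
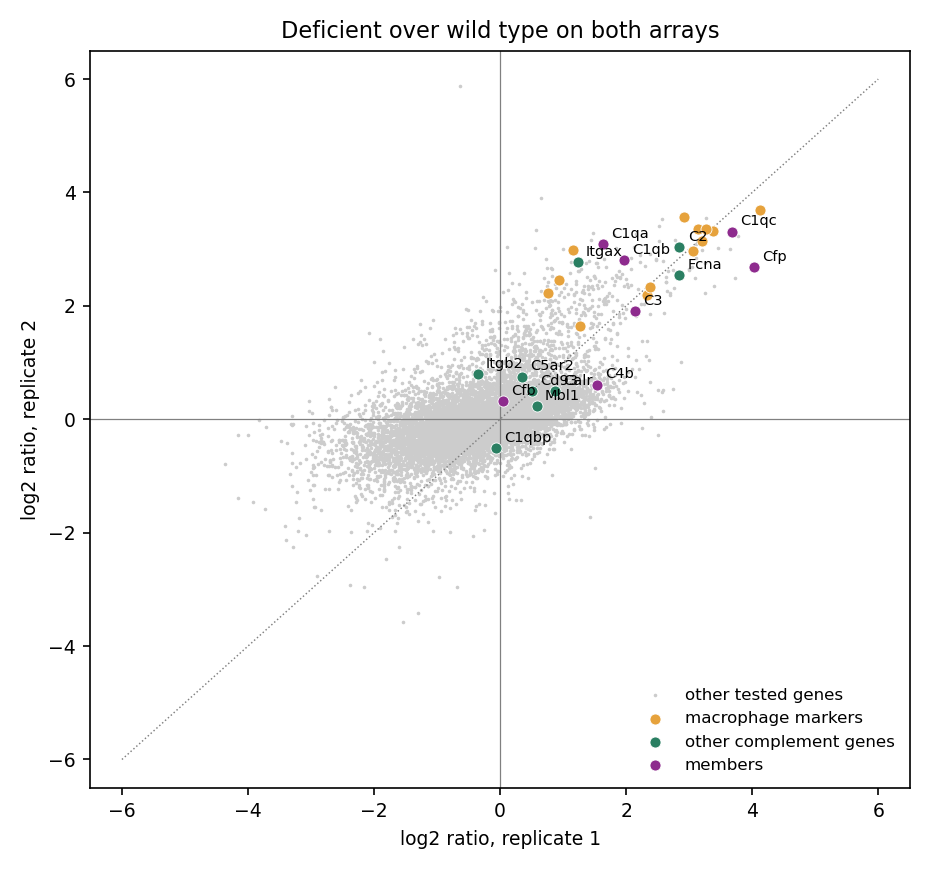
Log2 ratio on replicate 1 (horizontal) against replicate 2 (vertical) for all 9931 tested genes (grey), macrophage markers (orange), other complement genes apart from soluble regulators (green, named) and the tested members (purple, named); the dotted line marks equal ratios. C1qa and C1qb lie above the line, Cfp and C4b below it, and C2 and Fcna lie among the macrophage markers.

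The preparations also differed in markers of other cells. Of 18 macrophage markers on the array 13 were tested and all 13 rose, with a median of 3.01 (2.92 on replicate 1 and 2.99 on replicate 2). Their summed level, in scanner units after normalization within and between arrays, was 211224 and 175769 in deficient RNA and 28984 and 17957 in wild-type RNA. Of the macrophage markers that were not tested, Cd300ld was not well above background anywhere, and Cd163, Mertk, Mrc1 and Axl were so in deficient RNA on replicate 2 alone. Apoe, a lipid carrier (3.91 ± 0.30, SD, n = 2), and Adgre1, which encodes F4/80 (3.35 ± 0.04), lay farthest from 0, and the median gene was Spic, a transcription factor of red pulp macrophages (3.01 ± 0.07). The mean log2 ratios of C1qc and Cfp lay above the macrophage median, and those of C1qa, C1qb, C3 and C4b lay below it. The part of macrophages in the complement ratios was not tested.

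Batf3 (mean log2 ratio 1.72), Irf8 (2.04) and Cd83 (2.00) were the dendritic cell markers that rose. They are 3 of 4 tested, of 9 on the array (median 1.86; summed level 14607 and 27170 in deficient against 5796 and 5393 in wild-type RNA). The other tested marker, Xcr1, stood at -1.76 on replicate 1 and 0.99 on replicate 2 (mean -0.38) and did not pass. Clec9a and Flt3, not tested, were well above background in deficient RNA on replicate 2 alone. Neutrophil markers rose in 3 of 7 tested, of 9 (median 1.12; 87332 and 52625 against 12499 and 10435), among them S100a9 (2.79) and S100a8 (2.46), while Ltf stood at 1.12 and did not pass. B-cell markers rose in 3 of 5 tested, of 10, namely Ms4a1 (1.94), Cd79b (1.59) and Ighm (1.36) (median 1.36; 101417 and 74424 against 44050 and 24837). Of 7 monocyte markers 3 were tested and Treml4 rose (2.87 ± 0.25, SD, n = 2), while Nr4a1 stood at 0.74 and Ly6c1 at 0.08. Of 9 markers of stroma and endothelium 2 were tested and Vwf rose (1.59 ± 0.08, SD, n = 2), while Pecam1 stood at -0.01; Col3a1, Pdgfrb, Dcn, Lum and Cdh5 were not well above background in any colour. Of 7 hepatocyte markers Alb, Apoa1, Apoa2, Ttr and Ahsg were not well above background in any colour, and Trf, the transferrin gene that other cells express too, rose (2.08 ± 0.39, SD, n = 2). The CD8 T-cell identity of the samples was visible in both preparations, in that 9 of 9 markers on the array were well above background in each on at least 1 array. Of these, 4 fell: Cd3e (-2.34 ± 0.53, SD, n = 2), which was bright in deficient RNA on replicate 2 alone, Cd5 (-1.88 ± 1.29), Cd3g (-1.82) and Cd247 (-1.29). The median of the 9 was -1.17, that of Lck, which did not pass; the summed level was 108404 and 80054 in deficient against 180272 and 209395 in wild-type RNA. What these cells contribute to the complement signal was not tested either.

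Sirpa, a myeloid inhibitory receptor, had the pair of ratios closest to the mean of the C1q chains (2.42 on replicate 1 and 3.07 on replicate 2), at 2.52 and 3.14, a Euclidean distance of 0.12 over the 2 arrays. Next came Marcks, an actin-binding protein (distance 0.16), Cst3, which encodes cystatin C (0.24), Olfm1 (0.26) and Pilrb1 (0.27). With 2 values per gene this likeness says only that the ratios were of similar size.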

How the data were processed

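RNA of deficient (Cy5) and wild-type (Cy3) cells was amplified linearly and dyed chemically, per the labels' protocols. Per the file headers, the deposited scanner files hold spot intensity values from Agilent Feature Extraction 9.5.3.1, the version the submitters' processing notes also name, with flags (other values, 0 or 1) for spots well above background. The authors' deposited value table repeats that program's log10 ratio to within 0.00500. Here, background was corrected with normexp (offset 50) on mean and local background signals, each array's ratios were loess-normalized on their own, and outlier spots (255 and 195) were left out. For summed levels and bounds alone, the average intensities were also quantile-normalized between the arrays (Aquantile in limma), which leaves the ratios unchanged. Probes were kept where 1 colour was well above background on both arrays, and the brightest probe stood for its gene. Between 26.0% and 32.4% of gene spots per colour were well above background. Mean ratios were compared with 0 in limma 3.58.1 (R 4.3.3, two-sided, Benjamini-Hochberg), with 1 residual degree of freedom per gene. With the main settings the fit used a variance pooled over all tested genes, and the number of arrays limits the precision. Tested on simulated data drawn for the deficient against wild-type comparison (9931 genes, 200 of them altered), the fit recovered 16.8% of changes of 1 on the log2 scale, 91.8% of 2 and 100% of 3. The simulated noise had the fitted variance, alike for all genes and both arrays, so these shares hold for that setting alone. On the real arrays the SD over all tested genes was 0.96 on replicate 1 and 0.65 on replicate 2. Names came from a RefSeq table of GRCm38.p6 and probe coordinates from the arrays (NCBI36), so exons were not assigned.

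The members and lists were chosen with earlier results of these data known, and the motifs with the promoters in view. Named were all members, each listed complement gene that passed plus 10 fixed ones (1 listed gene is not reported here), the other tested ones, the median and extreme markers of each list and the 5 genes nearest to the C1q chains. Other markers, neighbours and genes named as dim were chosen after their values were seen. Alternatives changed the background correction, normalization, ratio, filter, probe summary, centring and separate channels (statmod 1.5.0), or left out an array.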

Additional observations from a re-analysis of the deposited data

How the results depend on the processing

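Main settings called 957 genes, 5 members and 3 of the other complement genes. A fitted background surface, no filter on dim probes and separate channels each called 0 in limma for all 3 counts. At an unadjusted p under 0.05 in limma these settings gave 633 of 9931 tested genes, 5116 of 27595 and 1987 of 9931. Among them were 5, 7 and 5 members and 3, 10 and 4 other complement genes. No background correction called 482 genes, median centring 417, and normexp on surface-subtracted signals, chosen after seeing the data, 409; members called were 5, 4 and 5. The Feature Extraction log ratio and the deposited value table each called 115 genes, 2 members and 2 other complement genes, and median centring called 2 of the latter. Offset 16, both-channel filtering, averaging of a gene's probes and centring on tested genes kept the counts within 1.5 times. Both-channel filtering left 5824 genes to test. C4b was called as a sixth member with both-channel filtering and with centring. The prior degrees of freedom in limma set the weight of the pooled variance. They were infinite with main settings, and 1.74, 2.38 and 3.22 with the fitted surface, no filter and separate channels. Why the counts changed was not tested. Over 14 alternatives, the log2 ratio ran from 1.63 to 3.09 for C1qa, 1.71 to 2.80 for C1qb, 2.61 to 3.69 for C1qc, 2.48 to 4.03 for Cfp, 1.34 to 2.38 for C3 and 0.61 to 1.53 for C4b, and over 13 from 0.04 to 0.71 for Cfb. A single array gave values with no test. Median centring moved the median of tested genes to -0.75 on replicate 1. With it, replicates 1 and 2 gave 0.61 and 2.89 for C1qa, 0.80 and 2.61 for C1qb and 2.13 and 3.09 for C1qc. For C3 they gave 0.89 and 1.80. Each array pairs both genotypes, so its ratio tested against 0 is already the paired analysis. Probes near background give bounds only, and 2 arrays of 1 dye orientation limit the rest.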
